A study of Mus musculus with 12 samples.

Results

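The genes for the proteins of the cytosolic ribosome were followed in mouse liver after zinc in the drinking water, after an injection of dexamethasone (Dex), and after both. They were taken by a rule on names, set with earlier results of these data known, as protein-coding genes whose symbol is Rpl or Rps followed by a number and at most 1 letter a, x or l, or Rplp0, Rplp1, Rplp2 or Rpsa. They also needed at least 10 counts in at least 3 libraries. Of the 54838 genes in the table, 80 protein-coding genes matched these names and 75 of them passed the count minimum, 44 for the large 60S subunit and 31 for the small 40S subunit. The 5 that did not pass were *Rpl3l*, *Rpl10l*, *Rpl39l*, *Rpl23a* and *Rpl24*.

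The livers came from 12 mice of the C57BL/6J strain, which by the study's methods were adult females, 3 in each of 4 groups. Their drinking water was plain or held 25 mM ZnSO4 over 7 days. An intraperitoneal injection of PBS or 200 µg Dex followed, and the liver was removed 2 h after it. The groups are called water-PBS (the control), zinc-PBS, water-Dex and zinc-Dex. Dex is a synthetic agonist of the glucocorticoid receptor, and the series asks how zinc and Dex, alone and together, change gene expression in the liver. Whole tissue was sequenced, so fewer cells of a type and less RNA per cell cannot be told apart. The libraries held 9091152 to 12303527 counts.

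Each ribosome holds a single copy of most ribosomal proteins, so cells make them in nearly equal amounts. Many of their mRNAs begin with a run of pyrimidines (C or T in the gene) right at the transcription start, the 5' TOP tract, through which the mTOR kinase controls their translation. A growing or feeding liver makes more ribosomes, and a fasting one breaks them down. Several ribosomal proteins hold a zinc ion between cysteine pairs (C-x-x-C), which makes the ribosome one of the larger zinc stores of a cell.

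RefSeq promoter sequences were at hand for 56 of the 75 genes. A run of at least 8 C or T lay between 10 bases before and 20 bases after the start in 23 of the 56 genes (41.1%), and in 13.0% of the 27025 genes with a promoter sequence. Windows of some of the genes described further on are shown because the 5' TOP tract is the feature the family is known for. The run marked may lie anywhere in the window, so it need not be a 5' TOP tract at the start itself. It begins 10 bases before the start in *Rpl34* and 3 bases after it in *Rps26*. They are from RefSeq on GRCm38.p6, 30 bases each, 5' to 3' on the gene's strand, and capitals mark the run.
Rplp2 (chr7:141447641-141447670, plus strand): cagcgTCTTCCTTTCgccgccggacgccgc
Rpl7a (chr2:26910797-26910826, plus strand): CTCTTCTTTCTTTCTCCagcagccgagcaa
Rpl13a (chr7:45128726-45128755, minus strand): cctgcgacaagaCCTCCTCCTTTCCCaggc
Rpl15 (chr14:18270967-18270996, minus strand): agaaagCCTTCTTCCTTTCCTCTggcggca
Rpl34 (chr3:130730318-130730347, minus strand): CTTTTCCTCTTCCggggacggtgctcagag
Rps6 (chr4:86857348-86857377, minus strand): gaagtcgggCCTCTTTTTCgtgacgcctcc
Rps18 (chr17:33955646-33955675, minus strand): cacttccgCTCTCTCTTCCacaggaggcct
Rps26 (chr10:128626487-128626516, minus strand): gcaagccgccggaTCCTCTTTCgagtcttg
Rps27 (chr3:90213629-90213658, minus strand): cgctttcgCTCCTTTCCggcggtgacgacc
Over the whole promoter of 300 bases, which ends just after the start, CCGGAAGT, the core that Ets factors bind, lay on either strand in 21.4% of the 56 genes and in 4.31% of all genes. The hexamer AGAACA, to which each glucocorticoid receptor monomer binds, was in 14.3% of the 56 and in 21.3% of all. The metal response core in its forms TGCACNC and TGCGCNC was in 10.7% and 16.1% of the 56, against 14.2% and 17.0% of all. A match is a description of these windows, and no match says only that these letters are not in them.

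The treatments were visible in genes known to answer to them. *Mt1*, a metallothionein that binds zinc, had 209 to 435 normalized counts in water-PBS and 3427 to 6212 in zinc-PBS, and *Slc39a4*, a zinc importer, had 561 to 747 and 214 to 259. *Tat*, a liver enzyme induced through the glucocorticoid receptor, had 6174 to 12189 in the 6 PBS livers and 61567 to 84028 in the 6 Dex livers. Normalized counts are raw counts divided by the size factor of the library, which DESeq2 sets by the median ratio over genes. All 6 hepatocyte markers of the list used were measured, and 5 of 10 exocrine pancreas markers were at 0 in every library.

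The 75 genes are strongly expressed, and how reads were assigned may bear on their counts. Mouse chromosomes hold many processed pseudogenes of ribosomal proteins, and reads that map to more than 1 place were left out of the counts. In 50-base windows along 1 transcript per gene, 74 of 75 genes shared sequence with another gene, and the countable windows, those not found in another gene's transcripts and not on another gene's exon of the same strand, were under 20% in 17 genes and over 80% in 7. *Rps27* had 1.35% countable windows but stood at 2962 normalized counts per kilobase, so few such windows did not always go with a low count. The read length is not given in the sources used here, and windows of 50 bases were an assumption. Per kilobase of transcript the level ran from 24.8 normalized counts in *Rps10* to 5072 in *Rplp1*, with a median of 1454.

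The 3 highest genes per kilobase were *Rplp1* with 5072, *Rpl4* with 3336 and *Rps15* with 3227 normalized counts, and the 3 lowest were *Rps10* with 24.8, *Rpl13a* with 85.4 and *Rpl29* with 285. The lowest 2 overlap other genes. *Rps10*, part of the 40S head, lies in a readthrough gene, RPS10-NUDT3, that covers 100% of its windows, and *Rpl13a*, a 60S protein often used as a reference gene, shares 67.1% of its windows with overlapping genes. *Rpl23a* and *Rpl24*, which are core ribosomal proteins, had 1 to 7 raw counts in every library. The comparisons that follow are therefore of the same gene between libraries. Over the 75 genes, Spearman's rho between mean count and countable share was 0.27, a description across genes that share these libraries.

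**Figure D1:**
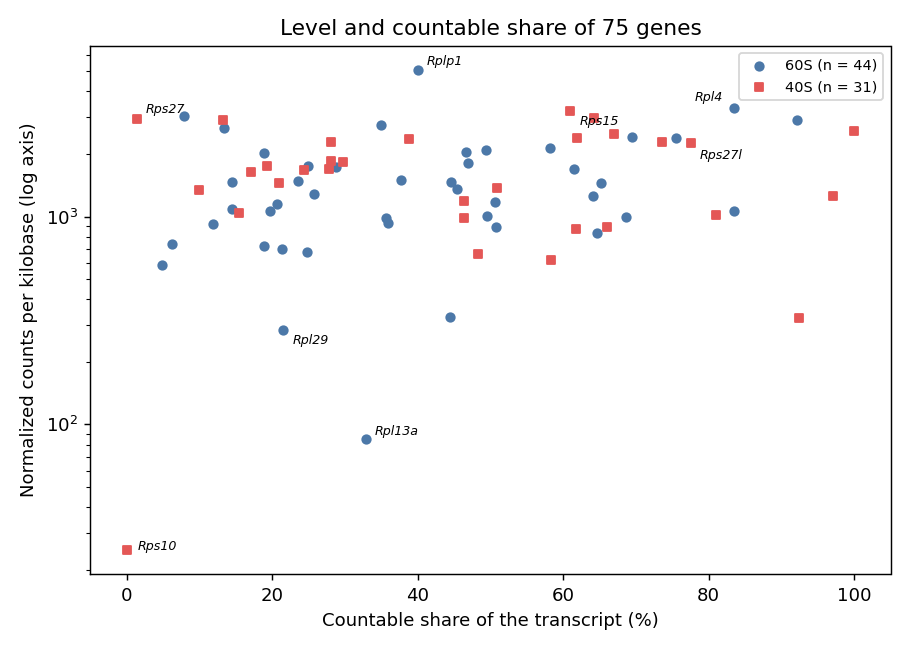
Level against countable share for the 75 genes. The x axis is the percent of 50-base windows of the transcript that are not shared with another gene and not on another gene's exon of the same strand. The y axis (log scale) is the mean normalized counts per kilobase over the 12 libraries, with circles for 60S and squares for 40S genes. *Rps10* and *Rpl13a* lie below all others at 24.8 and 85.4, and *Rplp1* lies highest at 5072.

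Of the minor paralogs, *Rps27l*, a p53 target and near copy of *Rps27*, was a strong gene with a mean of 1125 normalized counts. *Rpl10l* had 0 counts in all 12 libraries, and *Rpl3l* and *Rpl39l* had at most 1 per library. For a gene with 0 counts, up to 3 counts per library are allowed by counting error. *Rps4l*, annotated as a transcribed processed pseudogene and so no member, had 63 to 189 counts.

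Replicates lay close together. The coefficient of variation within groups, averaged over the 4 groups, had a median of 4.45% over the 75 genes, against 6.77% over the 2993 genes that averaged 500 normalized counts or more. The ratio of summed 60S to summed 40S counts was 1.40 to 1.46 in the 12 libraries, with group means of 1.43 ± 0.0079 in water-PBS, 1.43 ± 0.024 in zinc-PBS, 1.44 ± 0.020 in water-Dex and 1.44 ± 0.0076 in zinc-Dex (SD, n = 3 each). The groups overlap in this ratio.

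After Dex the 75 genes stood higher together, by a small and nearly equal step, when the libraries were scaled by size factors, and this direction turned when they were scaled by total counts. Averaged over water and zinc mice, the fitted log2 difference of Dex minus PBS was above 0 in 75 of 75 genes, with a median of 0.17 (12.5%) and a middle range from 0.14 to 0.19. Scaled by total counts it was below 0 in 66 of 75, with a median of -0.042. The size-factor step was 0.18 in the median for plain water and 0.16 for zinc water, and 0.17 over both for 60S as well as for 40S genes.

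The summed normalized counts of the 75 genes were 82607, 82007 and 80807 in water-PBS and 87175, 82390 and 86131 in zinc-PBS. They were 90195, 94282 and 92813 in water-Dex, then 95259, 95071 and 96631 in zinc-Dex. All 6 Dex livers lay above all 6 PBS livers on this scale, with means 13.0% apart in water and 12.2% apart in zinc mice. As a share of all counts the same genes made up 0.793% to 0.809% in water-PBS, 0.812% to 0.835% in zinc-PBS, 0.772% to 0.801% in water-Dex and 0.777% to 0.817% in zinc-Dex. On this scale the Dex and PBS livers overlapped.

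**Figure D2:**
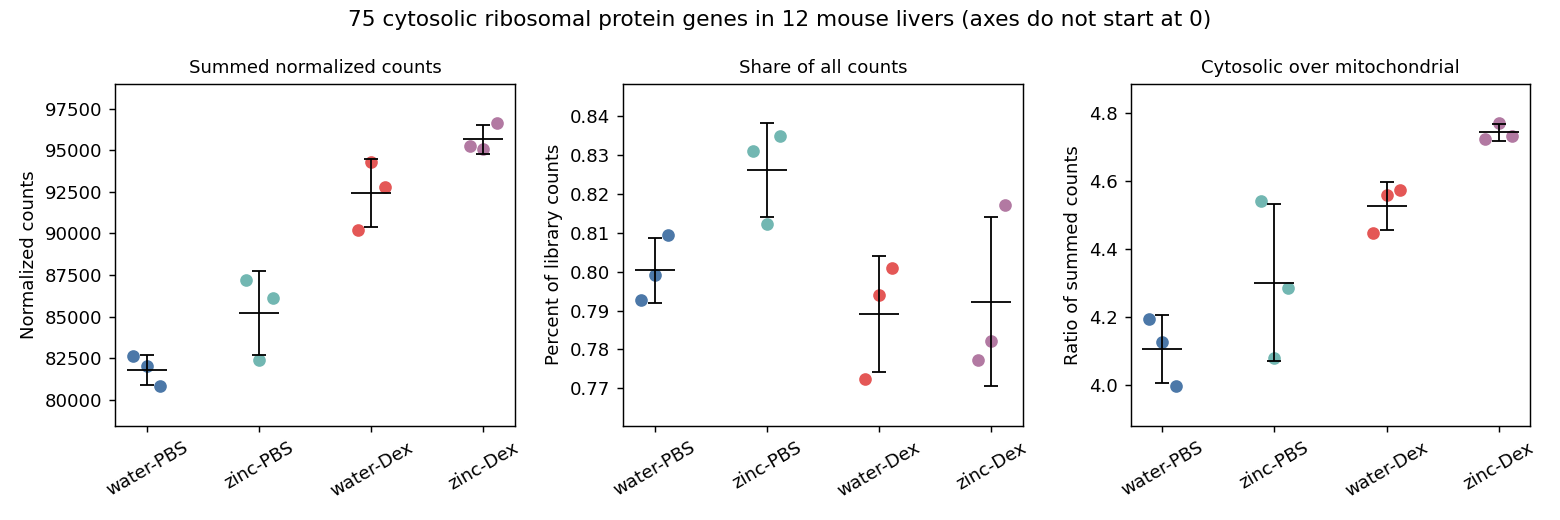
The 75 genes in the 12 livers. The left panel plots the summed normalized counts, the middle panel the percent of all counts of the library, and the right panel the ratio of summed cytosolic to summed mitochondrial ribosomal protein counts; points are livers, and bars are the mean and SD of 3. The sums of the Dex livers lie above those of all PBS livers when normalized (at least 90195 against at most 87175), but not as a share of counts.

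The libraries differ in how the 2 scales relate to each other. Total counts per unit of size factor were 9984187 to 10490409 in the PBS livers and 11586481 to 12254162 in the Dex livers. The 50 most abundant genes took 33.5% to 35.3% of the counts in the PBS and 36.1% to 37.7% in the Dex livers. The genes whose share grew most were *Alb*, from a mean of 10.4% to 11.0%, *Serpina3k*, a liver secretory protease inhibitor, from 0.642% to 1.21%, and *Tat*, from 0.0801% to 0.569%. With total counts, the median of all genes tested for Dex moved from -0.02 to -0.23, so the median of the 75 genes lay above that of all genes tested by 0.19 under both scalings. Against the tested genes that averaged 500 normalized counts or more it lay higher by 0.077 under both. A change of scaling shifts all genes nearly alike, so an equal gap under both follows from the method and is no second result. No RNA standard is named in the sources used here, so a rise of these mRNAs per cell and a change in the rest of the library cannot be told apart.

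**Figure D3:**
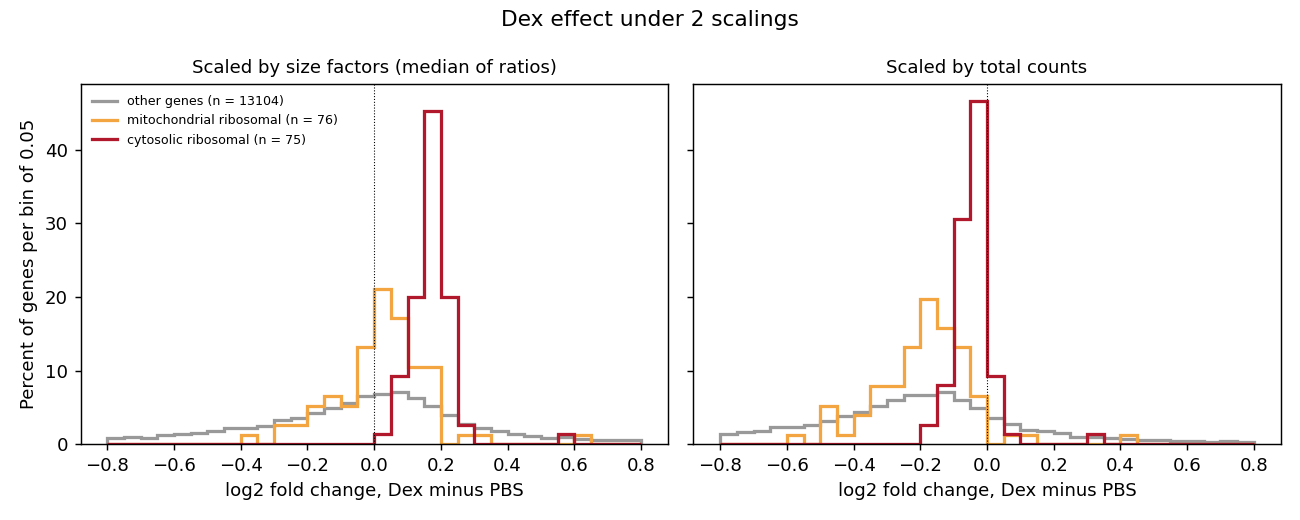
Distribution of the log2 fold change for Dex minus PBS under both scalings. The x axis is the log2 fold change, the y axis the percent of genes per bin of 0.05, for 75 cytosolic and 76 mitochondrial ribosomal protein genes and 13104 other genes with at least 10 counts in 3 libraries. The cytosolic genes form a narrow peak with a median of 0.17 under size factors and -0.042 under total counts. In both panels that median lies right of the median of all genes tested (-0.02 and -0.23), but many other genes lie there too. Under size factors the bin from 0.15 to 0.2 holds 5.13% of the other genes.

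By the DESeq2 test over all genes (Benjamini-Hochberg adjusted p under 0.05), 49 of the 75 genes were called higher with Dex over both kinds of water and 0 lower, where 14.6% of 17093 genes tested were called higher and 14.1% lower. Strong genes are called more easily, and of the 2992 tested genes that averaged 500 normalized counts or more, 35.6% were called higher over both waters, 24.3% in plain and 25.4% in zinc water. The 49 called genes are all among the 70 members above that mean. Of these 70 members, 70.0% were called higher over both waters, 38.6% in plain water and 27.1% in zinc water. The share in zinc water is near the 25.4% of all genes that strong. In plain water 27 of 75 were called higher (background 11.7% higher and 9.91% lower) and in zinc water 19 of 75 (background 11.0% and 9.08%), and 0 were called lower in either. By total counts 0 were called higher in each of the 3 comparisons, where 7.75% of genes were called higher and 33.5% lower over both waters, 7.07% and 23.1% in plain water and 6.43% and 25.1% in zinc water. *Rpl35*, *Rps21* and *Rps27l* were called lower over both waters and *Rpl35* in zinc water. No called member passed a log2 fold change of 0.8 in either direction, where 4.81% of genes were higher and 5.49% lower by that rule over both waters, 4.89% and 4.79% in plain water, 5.0% and 4.68% in zinc water, and 0.187% and 0.146% for zinc over both injections. Leaving out 1 liver moved these counts: to 4 to 16 of 75 in plain water without any water-PBS or water-Dex liver or zinc-Dex replicate 3, to 5 to 12 in zinc water without any zinc-Dex liver or zinc-PBS replicate 2 or 3, and to 32 over both waters without water-Dex replicate 2. When size factors were taken from the 75 genes themselves, 0 of 75 were called in any comparison by DESeq2 (1 at an unadjusted p under 0.05 for Dex over both waters). This scaling puts the family's median near 0 by construction (0.0039 for Dex over both waters), so few calls could follow. No gene's Dex step was shown to differ from that of the family. The median standard error of 0.056 with the usual size factors leaves small differences between members undetectable.

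Single livers were compared as well. On normalized counts, all 3 water-Dex livers lay above all 3 water-PBS livers in 55 of 75 genes, where 20.7% of all genes with at least 10 counts in 3 libraries did so. In zinc water this held for 54 of 75 genes (background 21.4%), and for all 6 Dex against all 6 PBS livers for 29 of 75 (background 11.8%). In 0 of 75 genes did all Dex livers lie below, where 19.6% of genes did in plain water, 20.1% in zinc water and 9.86% over both. The background shares are over 13255 genes of all levels, while 70 of the 75 members averaged 500 normalized counts or more. The share among genes that strong was not taken, so how far the members exceed it is not known. These counts rest on size factors, and the comparisons within plain water and within zinc water share no library.

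Among the 60S genes, the largest called steps over both waters were those of *Rpl10a*, *Rpl6* and *Rpl3*. *Rpl3*, which reaches into the peptidyl transferase centre, had 1915, 1705 and 1688 normalized counts in water-PBS, 1936, 1777 and 1825 in zinc-PBS, 1987, 2064 and 2045 in water-Dex, then 2277, 2230.5 and 2218 in zinc-Dex. Every Dex liver lay above every PBS liver. The log2 difference was 0.24 ± 0.051 (SE, DESeq2 adjusted p = 2.07e-05). *Rpl6* differed by 0.26 ± 0.054 (adjusted p = 1.64e-05), and its Dex livers, at 1250 to 1443, lay above its PBS livers at 1096 to 1185.

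*Rpl10a*, of the mobile L1 stalk, had 643, 592 and 539 normalized counts in water-PBS, 596, 641 and 647 in zinc-PBS, 718, 746 and 698 in water-Dex, then 716, 710 and 796 in zinc-Dex. It differed by 0.26 ± 0.066 (adjusted p = 0.000571), with no overlap between Dex and PBS. In plain water alone the largest called steps were 0.30 ± 0.079 for *Rpl37*, 0.28 ± 0.094 for *Rpl10a* and 0.27 ± 0.089 for *Rpl7a*. In zinc water they were 0.33 ± 0.084 for *Rpl15*, 0.28 ± 0.097 for *Rps2* and 0.28 ± 0.071 for *Rpl3*. The step of *Rps2*, a 40S protein at the mRNA entry, rests on zinc-Dex replicate 1, with 1898 counts against 1543 and 1524 in the other zinc-Dex livers and 1309 to 1418 in zinc-PBS. Without that liver it was 0.17 and not called (adjusted p = 0.179).

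The largest steps on the log2 scale are not the firmest. *Rps10* had 8.15 to 17.8 normalized counts, and its difference of 0.55 ± 0.31 did not pass the test (adjusted p = 0.192), although all Dex livers lay above all PBS livers. At the low end of the family stood *Rpl35* with 0.037 ± 0.068, *Rps21* with 0.053 ± 0.056 and *Rps27l* with 0.068 ± 0.060, none of them called with size factors. With total counts these 3 were the called decreases, by -0.17, -0.16 and -0.14.

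**Figure D4:**
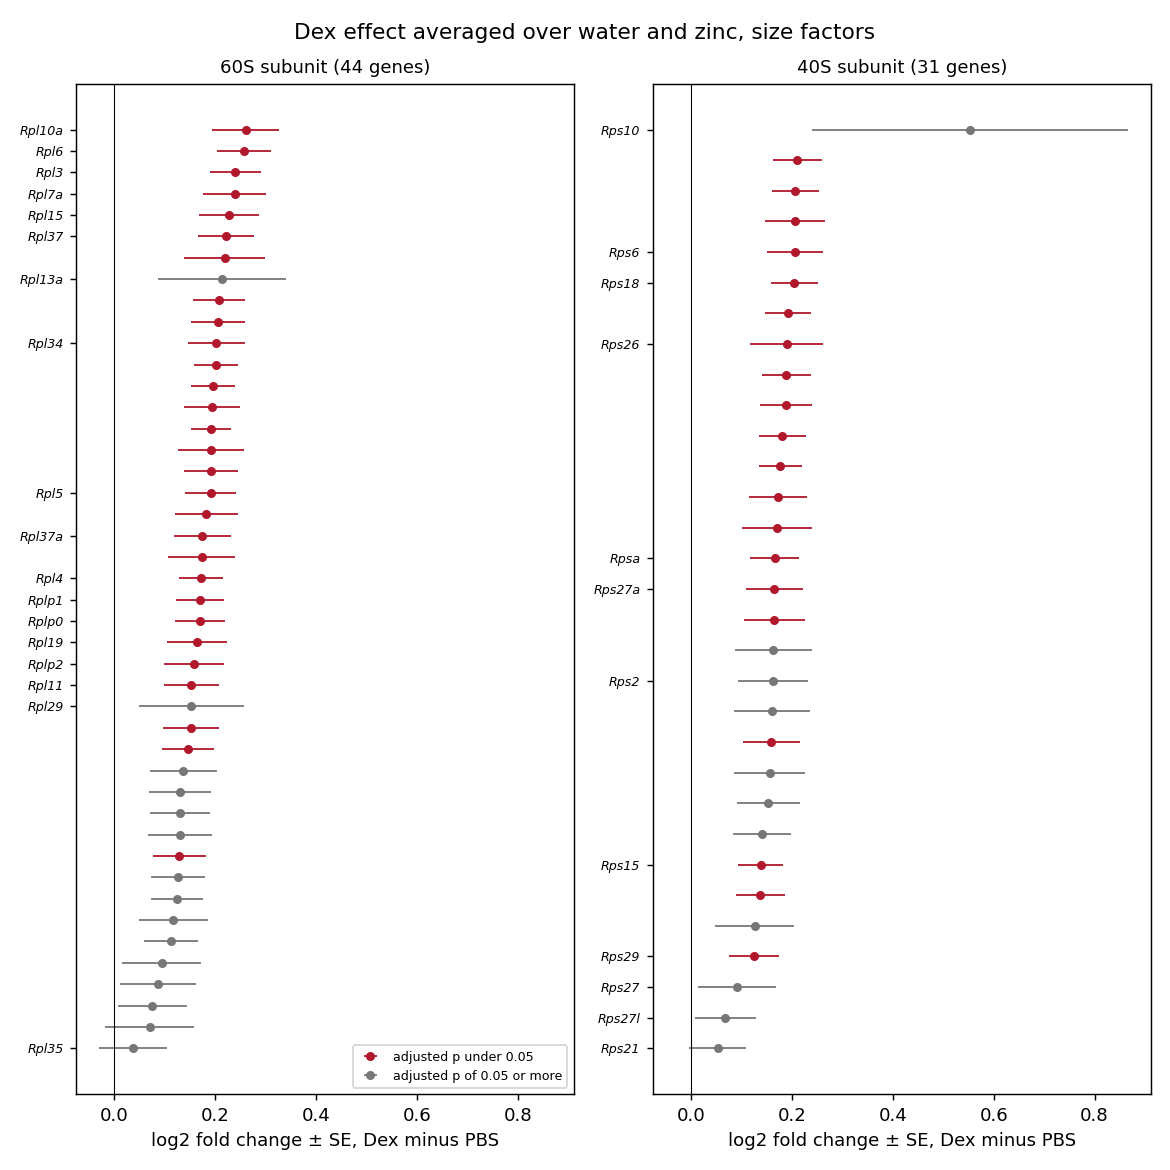
Dex step of each of the 75 genes with size factors. Points are log2 fold changes of Dex minus PBS averaged over water and zinc mice, bars are standard errors, and the panels hold the 44 60S and 31 40S genes in order of size, with names for those described in the text; red marks an adjusted p under 0.05 (DESeq2). The points lie between 0.037 (*Rpl35*) and 0.55 (*Rps10*), all above 0; with total counts 66 of the 75 lie below 0.

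Some members have further roles. *Rps6*, the 40S protein that S6 kinase phosphorylates downstream of mTOR, had 819, 804 and 850 normalized counts in water-PBS, 897, 830 and 870 in zinc-PBS, 918, 1023 and 1013 in water-Dex, then 978, 921 and 992 in zinc-Dex. It differed by 0.21 ± 0.056 (adjusted p = 0.00152), with no overlap between Dex and PBS. *Rpl5* and *Rpl11*, which with 5S rRNA can bind Mdm2 and so spare p53, differed by 0.19 ± 0.050 and 0.15 ± 0.055, both called. *Rpsa*, also known as the laminin receptor precursor, differed by 0.17 ± 0.049, and *Rps27a*, made as a fusion with ubiquitin, by 0.17 ± 0.056. Both were called, while their Dex and PBS livers overlapped.

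*Rps18*, *Rpl19* and *Rpl13a* serve as reference genes in quantitative PCR. *Rps18* had 1441, 1538 and 1482 normalized counts in water-PBS, 1572, 1512 and 1557 in zinc-PBS, 1702, 1694 and 1712 in water-Dex, then 1700, 1826 and 1860 in zinc-Dex. It differed by 0.21 ± 0.046 (adjusted p = 7.36e-05), against -0.0063 with total counts. *Rpl19* differed by 0.16 ± 0.060 (adjusted p = 0.0245), against -0.048 with total counts. *Rpl13a*, with 70.1 to 112 counts, differed by 0.21 ± 0.13 and was not called. Of the 28 named genes, 22 were called with size factors, beside 49 of the 75 (65.3%) and 14.6% of all genes. Some of the 28 were named because their steps were the largest called, so this count says nothing further about the family. With total counts 20 of the 28 changed sign and 8 stayed above 0.

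Other genes of translation and of ribosomes were set beside the family. Their counts, here and below for biogenesis, mTOR and mitochondrial ribosome genes, stand against 14.6% of all genes called higher and 14.1% lower with size factors. With total counts these shares were 7.75% and 33.5%. Of the tested genes that averaged 500 normalized counts or more, 35.6% were called higher with size factors. Most of the 5' TOP genes below are that strong, while most of the biogenesis and mitochondrial ribosome genes are not. Of 7 ribosomal proteins that the naming rule missed, such as *Rps3a1* and *Fau*, 4 were called higher with Dex and 0 lower, with a median of 0.18 (-0.034 with total counts). *Rack1*, a scaffold on the 40S head, had the largest called difference with 0.25 ± 0.051, before *Rpl7l1* with 0.20 ± 0.067, and *Rpl36al* at 0.46 ± 0.25 was not called. Of 16 other genes with 5' TOP mRNAs, 12 were called higher and 0 lower, with a median of 0.16 (-0.050 with total counts). The largest called differences were those of *Eef1d*, a subunit of the elongation factor 1 exchange complex, with 0.51 ± 0.069, and *Hnrnpa1* with 0.26 ± 0.074.

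Ribosome biogenesis genes make and process rRNA in the nucleolus. Of 50 measured, 27 were called higher and 0 lower, with a median of 0.31, and with total counts 11 were called higher and 2 lower with a median of 0.099. *Nolc1*, a nucleolar chaperone of snoRNPs, rose by 0.94 ± 0.10 and *Ddx21*, a nucleolar helicase, by 0.72 ± 0.092. Of 23 genes of mTOR and translation control, 12 were called higher and 2 lower, with a median of 0.19, and with total counts 7 were called higher and 6 lower with a median of -0.024. The rise of *Ddit4*, an inhibitor of mTOR complex 1, was 5.39 ± 0.15, that of *Eif4ebp3*, a repressor of cap-dependent initiation, 1.91 ± 0.23, and the genes that fell were *Mlst8* by 0.52 and *Deptor* by 0.14.

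The mitochondrial ribosome has its own set of proteins, made in the cytosol and imported. Of its 76 measured genes, 3 were called higher and 4 lower with Dex, with a median of 0.032 (-0.18 and 1 higher against 27 lower with total counts). *Mrps31* rose by 0.62 ± 0.086 and *Mrpl49* fell by 0.36. The ratio of summed cytosolic to summed mitochondrial counts does not depend on the scaling. It was 4.19, 4.13 and 4.00 in water-PBS, 4.54, 4.08 and 4.28 in zinc-PBS, 4.44, 4.56 and 4.57 in water-Dex, then 4.72, 4.77 and 4.73 in zinc-Dex. Each Dex group lay above its own PBS group, with means 10.2% apart in water and 10.3% apart in zinc mice, and only zinc-PBS replicate 1 reached into the range of the water-Dex livers. The ratio is a gap between 2 sets of genes, so it cannot tell a rise of the cytosolic from a fall of the mitochondrial set. With total counts both medians were below 0, at -0.042 for the cytosolic and -0.18 for the mitochondrial genes.

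Markers of other cells moved with Dex too. Their calls stand against 14.6% of all genes called higher and 14.1% lower, and 7.75% and 33.5% with total counts. Of the tested genes that averaged 500 normalized counts or more, as the 6 hepatocyte markers do, 35.6% were called higher with size factors. Of 5 measured red blood cell markers of 7 listed, 4 were called higher (2 with total counts). Their summed level was 889 to 1562 in water-PBS, 779 to 969 in zinc-PBS, 1215 to 2136 in water-Dex and 1363 to 1515 in zinc-Dex. Of 10 lymphocyte markers 3 were measured and all 3 were called lower, with total counts as well. Their sums were 141 to 164, 139 to 215, 70.2 to 84.1 and 90.0 to 131 in the same order. Of these, *Cd3g* and *Cd79b* averaged only 6.07 and 9.24 normalized counts, and *Ighm* 81.9. Of the 6 hepatocyte markers 4 were called higher and 0 lower (1 higher with total counts), with sums of 1169477 to 1379694 in the PBS and 1528606 to 1669222 in the Dex livers. Of 9 macrophage markers 0 were called by DESeq2 with size factors, and 6 were called lower with total counts. Of 6 endothelial markers 2 were called higher and 2 lower (1 and 3 with total counts), and of 5 measured gut epithelium markers 1 was called lower (2 with total counts). The 1 exocrine pancreas marker measured was not called. The part of these in the Dex step of the ribosomal genes was not tested.

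Zinc was compared within PBS and within Dex mice. By DESeq2, 0 of 75 genes were called with zinc in PBS mice (3 at an unadjusted p under 0.05, and 0 by edgeR), where 0.211% of 12307 genes were called higher and 0.13% lower. In Dex mice 0 of 75 were called as well (5 at an unadjusted p under 0.05, and 0 by edgeR), where 0.915% were called higher and 0.438% lower. Over both injections 1 of 75 was called higher, where 1.63% of genes were called higher and 0.837% lower. The fitted median was 0.059 in PBS mice and 0.047 in Dex mice, with 60 of 75 genes above 0 in each and 52 above 0 in both. With total counts the medians were 0.045 and 0.0030, with 57 and 39 above 0.

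All 3 zinc-PBS livers lay above all 3 water-PBS livers in 7 of 75 genes and below in 2, where 5.73% and 5.98% of all genes did. In Dex mice the zinc livers lay above in 20 and below in 2 of 75, where 10.1% and 9.63% did. Over both injections 0 of 75 genes had all 6 zinc livers on one side, where 0.317% of genes had them above and 0.226% below. These shares, too, are over genes of all levels and not over genes as strong as the members. The median standard error of a member was 0.080 in either comparison, more than the median zinc step, so a step of that size was not detectable in single genes at this number of mice.

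The 1 gene called for zinc was *Rplp1*, which with *Rplp0* and *Rplp2* forms the acidic stalk that brings elongation factors to the 60S subunit. *Rplp1* had 2243, 2284 and 2187 normalized counts in water-PBS, 2669, 2371 and 2533 in zinc-PBS, 2516, 2526 and 2454 in water-Dex, then 2959, 2881 and 2749 in zinc-Dex. With either injection all zinc livers lay above all water livers. The log2 difference of zinc over both injections was 0.18 ± 0.047 (DESeq2 adjusted p = 0.00882), 0.17 ± 0.067 in PBS mice and 0.20 ± 0.067 in Dex mice, neither called alone. It was called with total counts as well (0.16, adjusted p = 0.0219), but not by edgeR (0.18, adjusted p = 0.0895), nor with size factors taken from the 75 genes. Leaving out 1 liver at a time gave 0.16 to 0.21, and the call was lost without zinc-PBS replicate 1 (adjusted p = 0.0714), water-Dex replicate 3 (0.0782) or zinc-Dex replicate 1 (0.0555).

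The other stalk genes did not pass the zinc test. *Rplp2* had 959, 1114 and 1115 normalized counts in water-PBS, 1201, 1121 and 1105 in zinc-PBS, 1172, 1239 and 1210 in water-Dex, then 1185, 1272 and 1300 in zinc-Dex, a zinc difference of 0.079 ± 0.060. *Rplp0*, which anchors the stalk, had 2803, 2716 and 2562, then 2736, 2602 and 2966, then 3104, 3089 and 2983, then 3040, 3055 and 3154 in the same order, a zinc difference of 0.025 ± 0.049. Whether *Rplp1* differs from its partners in this was not tested. For Dex all 3 stalk genes were called with size factors, with 0.17 ± 0.049 for *Rplp0*, 0.17 ± 0.047 for *Rplp1* and 0.16 ± 0.060 for *Rplp2*, and all 3 were below 0 with total counts.

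**Figure D5:**
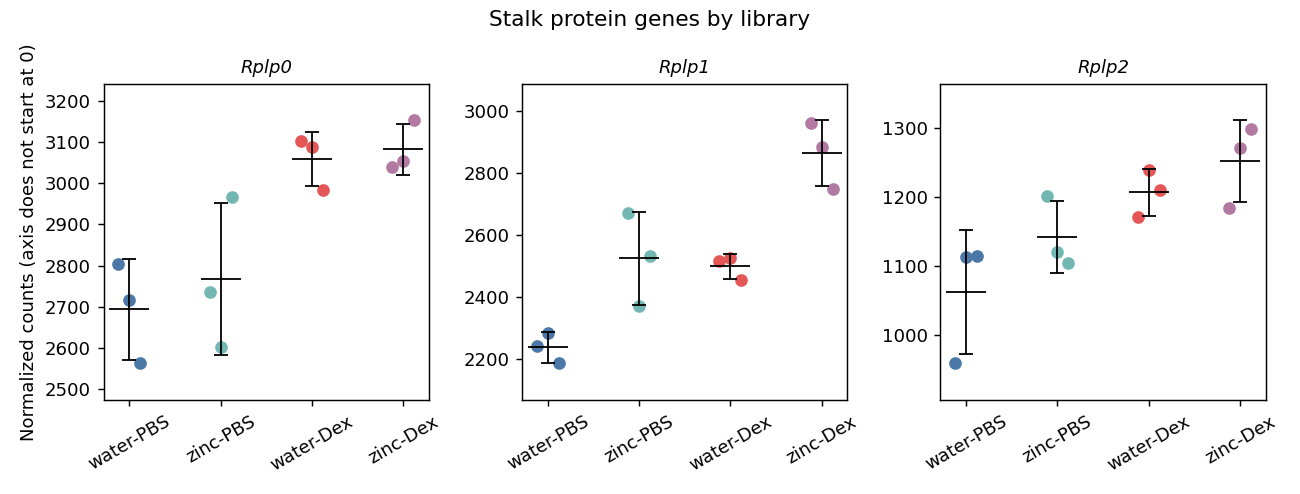
The 3 stalk genes in the 12 livers. The y axis is normalized counts, points are livers, and bars are the mean and SD of 3. In *Rplp1* the zinc livers lie above the water livers with PBS (2371 to 2669 against 2187 to 2284) and with Dex (2749 to 2959 against 2454 to 2526), while in *Rplp0* and *Rplp2* zinc and water livers overlap.

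The genes whose proteins carry at least 2 separate C-x-x-C pairs, the zinc ribbon form, were *Rpl34*, *Rpl37*, *Rpl37a*, *Rps26*, *Rps27*, *Rps27l* and *Rps29*. None of the 7 was called with zinc in any comparison by DESeq2. Over both injections their zinc differences ran from -0.058 ± 0.060 in *Rps27l* to 0.15 ± 0.077 in *Rps27*, a gene with 1.35% countable windows. With Dex, 5 of the 7 were called higher with size factors, beside 49 of the 75 (65.3%) and 14.6% of all genes, and with total counts 0 were called higher and *Rps27l* was called lower. *Rpl37*, a 60S protein, had 740, 748 and 742 normalized counts in water-PBS, 850, 745 and 783 in zinc-PBS, 911, 906 and 938 in water-Dex, then 864, 852 and 903 in zinc-Dex, and differed by 0.22 ± 0.056 (adjusted p = 0.000444). *Rpl34*, *Rpl37a*, *Rps26* and *Rps29* differed by 0.20, 0.18, 0.19 and 0.13. *Rps27* at 0.092 ± 0.077 and *Rps27l* at 0.068 ± 0.060 were not called.

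Whether zinc changed the Dex step was tested as an interaction. In the interaction of zinc and Dex 0 of 75 genes were called (0 at an unadjusted p under 0.05 too, and 0 by edgeR), where 2 of 26185 genes were called higher and 4 lower (0.00764% and 0.0153%). The fitted interactions had a median of -0.015 and ran from -0.41 ± 0.25 in *Rpl13a* to 0.32 ± 0.63 in *Rps10*, the weakest genes of the family. The median standard error was 0.11, against a median Dex step of 0.17, so the test of the difference is weak for single genes. In 74 of 75 genes the Dex difference was above 0 in both waters with size factors, the exception being *Rpl35* (0.11 ± 0.096 in plain and -0.031 ± 0.096 in zinc water), and with total counts 26 and 10 of 75 were above 0. Of the 35 genes called in either water 11 were called in both, which is 40.7% of the 27 called in plain water and 57.9% of the 19 called in zinc water. Over the 75 genes Pearson's r between the Dex steps in plain and zinc water was 0.27 and Spearman's rho 0.16, a description across genes that share libraries within each comparison.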

How the data were processed

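Liver RNA of 12 mice was sequenced as stranded single-end libraries. The authors trimmed reads, aligned them with HISAT2 2.0.4 per their processing notes, and deposited raw counts per Ensembl gene from featureCounts, without multimapping reads; the annotation release and strand setting are not given in the sources used here. Groups came from the sample labels. The members and gene lists were chosen with earlier results of these data known. DESeq2 1.42.0 (R 4.3.3) was fitted to all 12 libraries of 9091152 to 12303527 counts, with 1 coefficient per group, Wald tests and a Benjamini-Hochberg adjusted p under 0.05 across all genes. P-values set each difference against the spread between these mice as fitted by DESeq2. Named genes were the 3 largest called steps per comparison, the 3 highest and lowest per kilobase, and fixed role, reference, stalk, paralog and C-x-x-C genes. *Rpl35*, *Rps21* and genes named for their place in the family were added after their values were seen. Transcripts, overlaps and C-x-x-C pairs came from GENCODE M21 (GRCm38), and promoters from RefSeq. Alternatives were edgeR 4.0.16, TMM and total-count scaling, filters, a replicate block and leaving out each library. The fitting functions were run on simulated counts with known Dex effects, balanced up and down. No shift between size factors and total counts was built in, so that run does not bear on the direction of the Dex step. The floor for a gene with 0 counts covers counting error only, while standard errors from DESeq2 include the fitted spread between mice.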

Additional observations from a re-analysis of the deposited data

How the results depend on the processing

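The direction of the Dex step depends on scaling. The log2 ratio of summed levels, Dex over PBS, was 0.17 with size factors and -0.041 as a share of total counts. In plain water, zinc water and over both, 27, 19 and 49 of 75 genes were called, all higher. With total counts 0, 1 and 3 were called, all of them lower. The calls were 0, 0 and 0 with total counts without the 50 most abundant genes, with size factors from the 75 genes and past a log2 fold change of 0.8. With the replicate block they were 4, 4 and 29, and with only the 6 libraries compared 3 in plain and 3 in zinc water. Without independent filtering 16 were called in plain water. By edgeR they were 19, 18 and 50, with TMM factors 28, 22 and 53, and with genes of at least 10 counts in 3 libraries 22, 21 and 49. Leaving out 1 library gave 4 to 22, 5 to 17 and 32 to 46. The 1 zinc call over both injections was 0 by edgeR, with the replicate block, with size factors from the 75 genes and past 0.8, and 0 to 1 with 1 library left out. Calls for zinc in PBS mice, zinc in Dex mice and the interaction were 0 under every alternative run.

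With total counts the Dex difference over both waters was below 0 in 66 of the 75 genes. Among the 28 genes named by rule, those that changed sign were -0.058 for *Rpl11*, -0.048 for *Rpl19*, -0.059 for *Rpl29*, -0.0089 for *Rpl34*, -0.037 for *Rpl37a*, -0.039 for *Rpl4*, -0.021 for *Rpl5*, -0.042 for *Rplp0*, -0.042 for *Rplp1*, -0.054 for *Rplp2*, -0.073 for *Rps15*, -0.0063 for *Rps18*, -0.050 for *Rps2*, -0.023 for *Rps26*, -0.12 for *Rps27*, -0.046 for *Rps27a*, -0.14 for *Rps27l*, -0.086 for *Rps29*, -0.0057 for *Rps6* and -0.045 for *Rpsa*. The cause was not tested.

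The replicate numbers share only a number. Over 18 pairs of same-numbered samples of different groups the correlation of deviations from group means was -0.20 to 0.19, and 1 pair was over 0.1. Among values of single named genes, 12 lost their call with the replicate block, 2 by edgeR and 58 of 420 with 1 library left out.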

Other observations

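Named processed pseudogenes of these genes took few counts. The table holds 300 pseudogenes with a -ps suffix, of which 44 had at least 10 counts in 3 libraries, and their summed raw counts were 1549 to 1912 per library, 1.92% of the counts of the 75 genes. Small nucleolar RNAs, which guide the modification of rRNA, lie inside 28 of the 75 genes, 53 in all. The 75 genes lie on 19 chromosomes, with 14 on chromosome 7. *Rps4l*, a transcribed processed pseudogene of the family, differed by 0.12 ± 0.23 with Dex over both waters and was not called (DESeq2 adjusted p = 0.769).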
